A study of Mus musculus with 20 samples.

Results

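B lymphocyte and germinal centre genes were followed in whole mammary glands that were taken before any tumor was seen. The set was a list of 30 genes chosen for their role in B cells, and a gene entered when the platform table of the arrays listed a probe set under its symbol. Where a gene had several probe sets, the one whose mean over the 20 arrays was highest stood for it. Of the 30 genes, 28 had a probe set, and all 28 were among the 12499 genes tested out of 18194 measured. Lyn and Cd38 had no probe set under their symbols in that table, and their expression is not analysed here. Faim3 was listed under its current symbol Fcmr.

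The animals were 20 female FVB/N mice, all heterozygous for an NRL-TGFα transgene (line 1372-1), in which the NRL promoter drives transforming growth factor alpha in the mammary gland. At 8.5 weeks each received a subcutaneous implant with 5 mg tamoxifen or with carrier alone (placebo), and 1 number 4 gland without a tumor was removed at 20.5 to 21 weeks, 4 weeks after treatment had ended. Tumors were then recorded for up to 2 years. The groups were tamoxifen animals with a later tumor (3: numbers 1, 2 and 10), tamoxifen animals without (7: numbers 3 to 9), placebo animals with a later tumor (7: numbers 1, 2, 4, 7, 8, 9 and 10) and placebo animals without (3: numbers 3, 5 and 6). Every group carried the transgene, so no comparison includes a gland without it, and each animal gave 1 array. Glands are named by treatment and animal number.

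B lymphocytes detect antigen through a membrane immunoglobulin whose signal is carried by the Cd79a and Cd79b chains and passed to kinases and adaptors inside the cell. Follicles hold resting B cells, and in germinal centres, which Bcl6 maintains, activated B cells divide and change their antibody genes. Irf4 and Prdm1 then drive the step to plasma cells, which stop using most of the B cell program and secrete antibody. In the mouse the number 4 mammary fat pad holds a lymph node, and the sources used here do not say whether it was left in these samples. RNA came from the whole gland, so fewer cells of a type and less RNA per cell cannot be told apart.

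The promoters that hold a match to a site of the B cell factors on the list are shown here. Their part in the levels of the genes was not tested. The sequences are those of RefSeq (GRCm38.p6), the 250 bases before a start site of the gene in the promoter table, written 5′ to 3′ on the gene's strand, with the match in capitals. The window of Blnk lies just before the outermost start of its RefSeq gene, while those of Cd37, Cd72 and Cd22 lie within the span of theirs, before a start site further in. The table was searched for all 30 listed genes, Lyn and Cd38 among them, and held 30 promoters of 25 of them. The octamer ATGCAAAT, or ATTTGCAT on the other strand, is bound by Pou2f2 with its coactivator Pou2af1, and was found in 1 of the 30 promoters, that of Blnk (chr19:40994222-40994471, minus strand), and in 1.6% of 32851 promoters. The Ets site GAGGAAGT, or ACTTCCTC, of the kind bound by Spib, was found in 2, those of Cd37 (chr7:45238840-45239089, minus strand) and Cd72 (chr4:43454627-43454876, minus strand), and in 2.44% of all promoters. The Ebf1 palindrome TCCCNNGGGA, where N is any base, was found in 1, that of Cd22 (chr7:30879029-30879278, minus strand), and in 0.779% of all. Both strands were searched, and no match overlapped another.
Blnk: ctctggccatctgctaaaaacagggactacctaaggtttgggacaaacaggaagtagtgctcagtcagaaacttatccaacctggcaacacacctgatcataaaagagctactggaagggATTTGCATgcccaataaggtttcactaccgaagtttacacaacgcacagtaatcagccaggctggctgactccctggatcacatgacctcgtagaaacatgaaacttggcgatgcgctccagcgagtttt
Cd37: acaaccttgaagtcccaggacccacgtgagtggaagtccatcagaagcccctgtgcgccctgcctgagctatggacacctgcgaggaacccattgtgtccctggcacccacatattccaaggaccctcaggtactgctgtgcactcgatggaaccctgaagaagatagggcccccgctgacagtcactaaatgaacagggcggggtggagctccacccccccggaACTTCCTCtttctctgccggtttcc
Cd72: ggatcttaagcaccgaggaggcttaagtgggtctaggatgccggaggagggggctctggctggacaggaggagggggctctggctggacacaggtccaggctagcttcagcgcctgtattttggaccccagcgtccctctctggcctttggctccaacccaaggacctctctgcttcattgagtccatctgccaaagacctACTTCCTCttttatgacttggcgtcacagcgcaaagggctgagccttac
Cd22: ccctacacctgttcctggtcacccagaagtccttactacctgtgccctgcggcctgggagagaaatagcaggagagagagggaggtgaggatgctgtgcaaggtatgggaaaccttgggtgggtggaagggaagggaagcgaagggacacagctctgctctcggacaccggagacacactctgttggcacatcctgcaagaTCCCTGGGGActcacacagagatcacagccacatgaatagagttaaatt
These 4 matches are a description of the letters, and the absence of a match elsewhere says only that the letters were not in that window.

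B cell transcripts were present in every gland. Ms4a1 (CD20), a surface protein of mature B cells, read 10.82, 11.53 and 11.83 on the log2 scale in tamoxifen glands with a later tumor and 10.79 to 12.16 (median 11.47) in tamoxifen glands without. It read 10.55 to 11.39 (median 11.05) in placebo glands with a later tumor and 11.16, 11.08 and 11.47 in placebo glands without. The 4 ranges overlapped, and the highest gland exceeded the lowest 3.05-fold. Keratin and fat cell genes of the labelled tissue were present too, with mean log2 levels over the 20 glands of 10.73 for Krt18, 10.63 for Epcam and 14.07 for Adipoq.

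**Figure D1:**
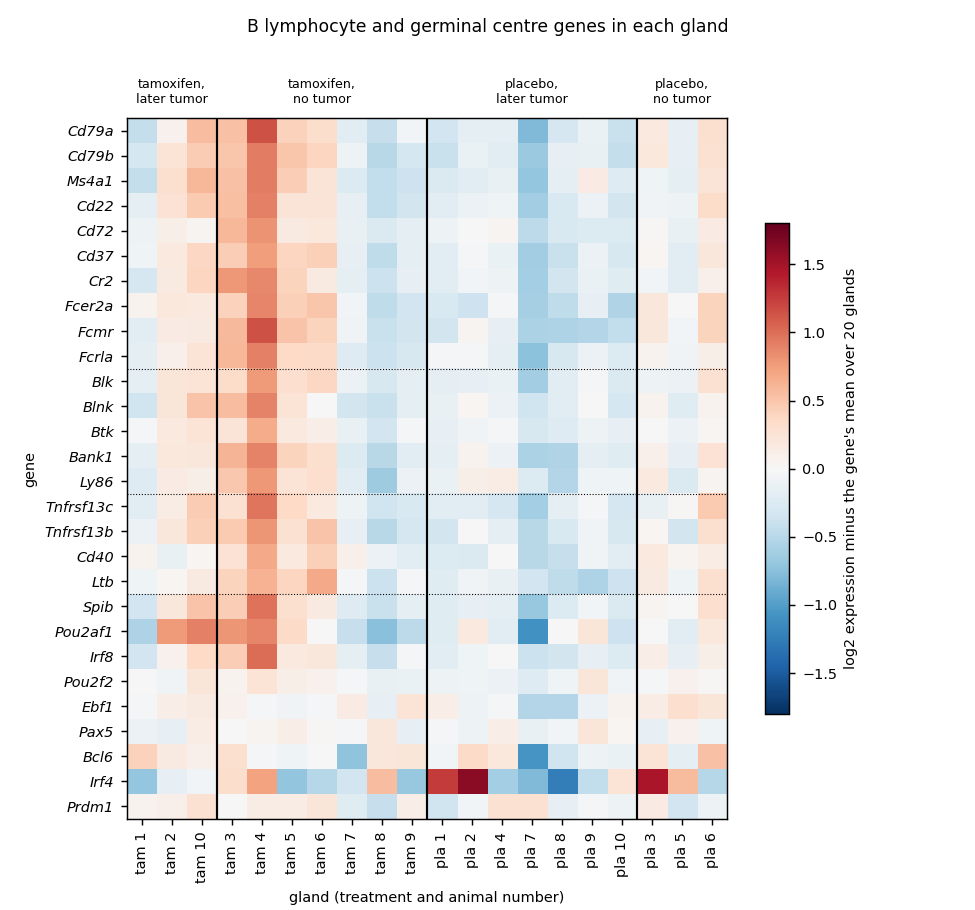
Log2 expression of the 28 genes (rows, by role) in each of the 20 glands (columns, by group; tam, tamoxifen; pla, placebo), each gene as the difference from its own mean over the glands. Most rows share the red column of tamoxifen 4 and the blue column of placebo 7, while Irf4 is highest in placebo 1, 2 and 3 and Pax5 hardly varies.

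Among the receptor and surface genes, Cd79a (Igα), the signalling chain of the B cell receptor, read 9.10, 9.60 and 10.07 in tamoxifen glands with a later tumor and 9.10 to 10.66 (median 9.84) in those without. In placebo glands it read 8.73 to 9.41 (median 9.22) with a later tumor and 9.70, 9.38 and 9.81 without. Tamoxifen glands without a tumor reached the highest values and placebo glands with a tumor the lowest, with overlap. Its partner Cd79b (Igβ) ran from 9.33 in placebo 7 to 10.91 in tamoxifen 4. Cd22, an inhibitory receptor that binds sialic acid, averaged 10.66 ± 0.34, 10.62 ± 0.48, 10.22 ± 0.19 and 10.53 ± 0.23 (SD; n = 3, 7, 7 and 3) in tamoxifen glands with and without a later tumor and placebo glands with and without one. Cd72, a further inhibitory coreceptor, and Cd37, a tetraspanin, had the same extremes, placebo 7 lowest and tamoxifen 4 highest. Cr2, the complement receptor CD21 of follicular B cells and follicular dendritic cells, ran from 8.90 to 10.38.

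Fcer2a (CD23), the low-affinity IgE receptor of follicular B cells, read 9.51, 9.63 and 9.62 in tamoxifen glands with a later tumor and 8.98 to 10.32 (median 9.86) in those without. The placebo glands read 8.85 to 9.42 (median 9.07) with a later tumor and 9.64, 9.44 and 9.84 without. All 3 tamoxifen glands with a tumor, and all 3 placebo glands without, lay above every placebo gland with a tumor. Fcmr, the receptor for the Fc part of IgM, had means of 9.79 ± 0.20, 10.01 ± 0.56, 9.39 ± 0.23 and 9.93 ± 0.22 in the same order of groups, and its ranges overlapped. Fcrla, an intracellular Fc receptor-like protein, exceeded the detection level of the filter (6.85) in 19 glands and fell short of it in placebo 7.

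The signalling genes followed the same glands. Blk, a Src family kinase of B cells, ran from 7.87 in placebo 7 to 9.27 in tamoxifen 4, and Btk, a Tec family kinase needed for B cell maturation, from 8.33 in tamoxifen 8 to 9.35 in tamoxifen 4. Blnk, the adaptor that Syk phosphorylates, averaged 9.96 ± 0.45 and 9.94 ± 0.48 in tamoxifen glands with and without a later tumor, and 9.68 ± 0.15 and 9.80 ± 0.16 in placebo glands with and without one. Bank1, a B cell scaffold protein, and Ly86 (MD-1), the partner of Cd180, spread 2.76-fold and 2.68-fold over the 20 glands.

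Of the tumor necrosis factor family members, Ltb (lymphotoxin beta), which B and T cells make and which maintains lymph node structure, read 10.99, 11.10 and 11.23 in tamoxifen glands with a later tumor and 10.67 to 11.75 (median 11.44) in those without. Placebo glands read 10.51 to 10.99 (median 10.71) with a later tumor and 11.22, 10.98 and 11.35 without. Of the 7 tamoxifen glands without a tumor, 6 exceeded the median of the placebo glands with one. Cd40, through which T cells activate B cells, read 7.94, 7.74 and 7.92 in tamoxifen glands with a later tumor and 7.69 to 8.56 (median 8.05) in those without. It read 7.38 to 7.86 (median 7.62) in placebo glands with a later tumor and 8.05, 7.93 and 8.01 without, so that the placebo groups did not overlap. Tnfrsf13c (BAFF receptor), which B cells need to survive, and Tnfrsf13b (TACI), a second receptor for BAFF, spread 2.99-fold and 2.45-fold over the glands.

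**Figure D2:**
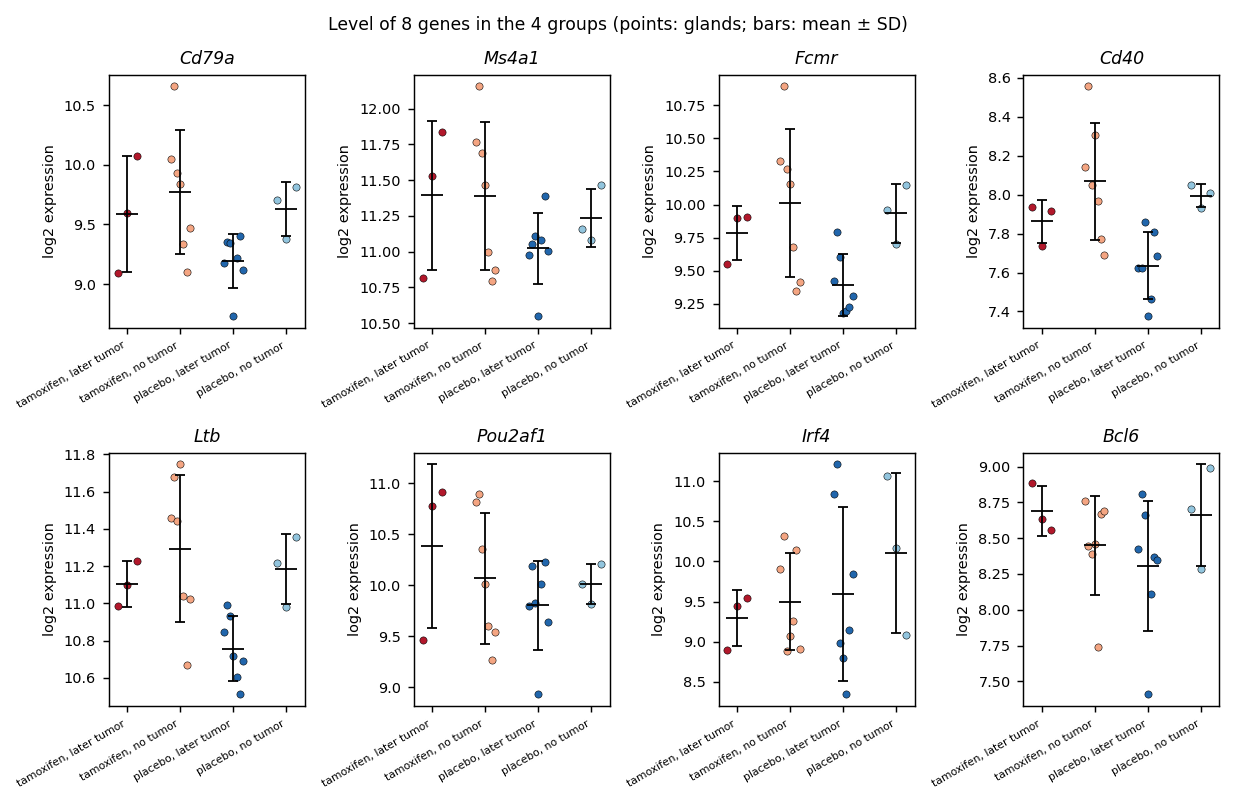
Log2 expression of 8 genes (panels) in the 4 groups, with a point for each gland and bars for mean ± SD. Ltb and Cd40 are low in placebo glands with a later tumor, 10.76 ± 0.17 and 7.63 ± 0.17, while Irf4 and Bcl6 spread widely within groups. Each panel has its own vertical scale, which does not start at 0.

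The transcription factors differed in how much they varied. Spib, an Ets factor of B cells and plasmacytoid dendritic cells, ran from 8.85 in placebo 7 to 10.50 in tamoxifen 4. Irf8, a factor of B cells and dendritic cells, ran from 9.30 in tamoxifen 8 to 10.71 in tamoxifen 4. Pou2af1 (OBF-1) was lowest in placebo 7 (8.93) and highest in tamoxifen 10 (10.92), with 10.89, 10.82 and 10.78 in tamoxifen 4, 3 and 2. The probe set used for Pax5, which fixes B cell identity, stayed between 7.71 and 8.08, an SD of 0.12 over the glands. Its other probe set, below the filter's level on all arrays, was as flat. How well either follows the Pax5 transcript of B cells was not tested. Pou2f2 (Oct-2) spread only 1.40-fold. Ebf1, an early B cell factor that fat cells also use, spread 1.79-fold and was lowest in placebo 7 and placebo 8.

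Bcl6 read 8.88, 8.63 and 8.56 in tamoxifen glands with a later tumor and 7.74 to 8.76 (median 8.46) in those without. The placebo values were 7.41 to 8.81 (median 8.37) with a later tumor and 8.71, 8.29 and 8.99 without, and all ranges overlapped. Irf4 had the widest spread of the set, 7.31-fold, and its values overlapped between all groups. It read 8.90, 9.44 and 9.55 in tamoxifen glands with a later tumor and 8.88 to 10.31 (median 9.25) in those without, and in placebo glands 8.34 to 11.21 (median 9.15) with a later tumor and 11.07, 10.16 and 9.08 without. The 3 highest readings were in placebo 1, 2 and 3, of which the first 2 later had a tumor. A second probe set of Irf4 had a mean of 7.14 and a slope of 0.03 on the mean of the T cell genes, a fit described with the lymph node content. Prdm1 (Blimp-1) exceeded the filter's level in only 10 glands and ran from 6.43 to 7.13.

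Of the 28 genes, 21 were highest in tamoxifen 4, and 20 were lowest in placebo 7 and 5 in tamoxifen 8. The spread between the highest and the lowest gland ran from 1.29-fold for Pax5 to 7.31-fold for Irf4. The mean of the 28 genes, each centred on its own average, lay at -0.18, 0.14 and 0.30 in tamoxifen glands with a later tumor and from -0.32 to 0.72 (median 0.22) in those without. In placebo glands it lay between -0.54 and 0.00 (median -0.14) with a later tumor and at 0.11, -0.08 and 0.18 without. Tamoxifen glands without a tumor held both the highest and some of the lowest values.

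Lymph node content was not measured. As a stand-in for it, each of the 28 genes was fitted on the mean of the T cell genes in the same gland. T cells share the lymph node with B cells and fill its paracortex. Of 20 T cell genes listed, 16 had a probe set, and their mean ran from -0.54 in placebo 8 to 0.68 in tamoxifen 6. The slope is the log2 change of a gene for each log2 unit of that mean, tested with limma over 12483 genes. Of the 28 genes, 22 had a positive slope past an adjusted p of 0.05, as had 9.77% of all genes tested, and none a negative one. The median slope was 0.83, against -0.01 over all genes. With the 4 groups as terms in the fit, 21 of the 22 were called and the median was 0.94. Of all genes, 11% were then called in either direction, against 16% without those terms.

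Ltb had the closest relation, with a slope of 1.02 ± 0.06 (SE, adjusted p = 9.15e-11). Its level was a near straight line on the T cell mean from placebo 9, the lowest, to tamoxifen 6, the highest. Fcmr (1.22 ± 0.13), Fcer2a (1.09 ± 0.12) and Cd79a (1.06 ± 0.18) had steeper slopes than Ltb, and Cd79b followed it (1.01 ± 0.16). Cd37, Tnfrsf13b, Cd22, Cr2, Bank1 and Fcrla lay between 0.87 and 0.98, and Btk had the shallowest of the called slopes, 0.54 ± 0.10. Ms4a1 had a slope of 0.84 ± 0.20 (adjusted p = 0.00538). Pou2af1 passed narrowly (0.91 ± 0.30, adjusted p = 0.0455) and was lost when any of 15 single animals was left out, with adjusted p up to 0.129 without tamoxifen 4. Blnk was lost without tamoxifen 4 (0.50, adjusted p = 0.0566).

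**Figure D3:**
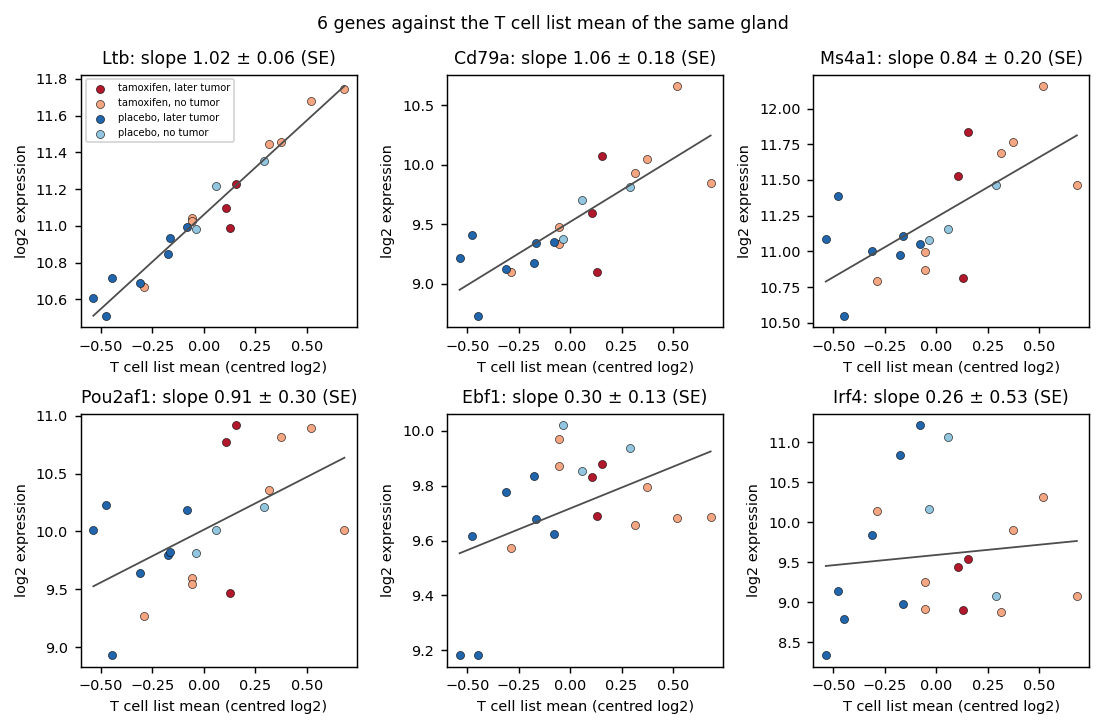
Log2 expression of 6 genes (vertical) against the mean of the 16 T cell genes in the same gland (horizontal, centred log2), coloured by group, with the fitted line. Ltb lies on its line in nearly every gland, Cd79a and Ms4a1 scatter more, and Irf4 shows no line, its slope of 0.26 ± 0.53 being smaller than its error.

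The 6 genes without a called slope were all transcription factors. They were Pax5 (-0.03 ± 0.08, adjusted p = 0.88), Ebf1 (0.30 ± 0.13, 0.134), Pou2f2 (0.20 ± 0.08, 0.0965), Bcl6 (0.47 ± 0.23, 0.176), Irf4 (0.26 ± 0.53, 0.811) and Prdm1 (0.22 ± 0.14, 0.316). Pou2f2 was called without placebo 9 (0.28, adjusted p = 0.00456) and without placebo 7, 8 and 9 (0.29, 0.0118). It was also called with quantile normalization (0.23, 0.0369) and with the mean of all probe sets (0.26, 0.0299). Ebf1 was called without the 2 glands farthest from the median T cell mean (0.53, 0.0351). Their other probe sets had slopes of 0.34 and 0.24 for Pou2f2, and of 0.48, 0.29, 0.25 and -0.03 for Ebf1. The factor genes with a called slope were Spib, Irf8 and Pou2af1.

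Other B cell genes, listed apart from the 28, were fitted in the same way. Of 20 tested, 16 had a called positive slope, with a median of 0.64. Btla, an inhibitory receptor, had 1.22 ± 0.14, Ccr6, a chemokine receptor, 0.90 ± 0.11, and H2-Ob, a B cell protein that tunes class II antigen loading, 1.21 ± 0.17. Of 7 other germinal centre genes 2 were called, Il21r (0.57 ± 0.08) and Fas (0.38 ± 0.09), which T cells also express. Of 12 plasma cell genes none had a positive slope at an unadjusted p under 0.05, and 4 had a called negative one, namely Fkbp11 (-1.20 ± 0.26), Igha (-1.70 ± 0.48), Sdc1 (-1.17 ± 0.35) and Xbp1 (-0.43 ± 0.12). Xbp1, Sdc1 and Fkbp11 are also used by secretory epithelium.

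Genes of other cells also moved with the T cell mean. All 7 epithelial genes had a called negative slope, with a median of -1.40, and their mean was highest in placebo 8 (1.36), placebo 7 (1.32) and placebo 9 (0.58). With the epithelial mean as a covariate, a choice made after seeing the data, 22 of the 28 genes were still called, 21 of them the same, with Pou2af1 lost and Prdm1 gained, and the median slope was 0.94. Without those 3 placebo glands 23 were called. Of all genes, 9.88% were called in either direction with that covariate and 19.1% without those glands. Of 9 dendritic cell genes 5 had a called positive slope and of 12 macrophage genes 2. Of 3 lymph node stroma genes 1 did, Cxcl13, the chemokine that draws B cells into follicles (0.96 ± 0.18, adjusted p = 0.000619), while Madcam1 (-0.32 ± 0.13, 0.108) and Fut7 (0.05 ± 0.06, 0.668) did not. Chst4, a further stroma gene, had a probe set but did not pass the filter (mean 5.65). With the mean of those 3 stroma genes and Chst4 in place of the T cell mean, 10 of the 28 were called. Of all genes, 1.54% were called in either direction in that fit.

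B and T cell transcripts did not keep one ratio in every gland. The mean of the 28 genes minus the mean of the T cell genes was lowest in tamoxifen 6 (-0.46) and tamoxifen 1 (-0.31) and highest in placebo 9 (0.38) and placebo 8 (0.21). Placebo 8 and 9 also had high plasma cell means, 0.74 and 0.61, as had tamoxifen 10 (0.90) and tamoxifen 2 (0.42). Those 4 glands had the highest means of the other germinal centre genes as well, at 0.44, 0.38, 0.64 and 0.32. In tamoxifen glands with a later tumor the germinal centre factor Bcl6 was not higher in these 2 animals (8.56 and 8.63) than in tamoxifen 1 (8.88).

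**Figure D4:**
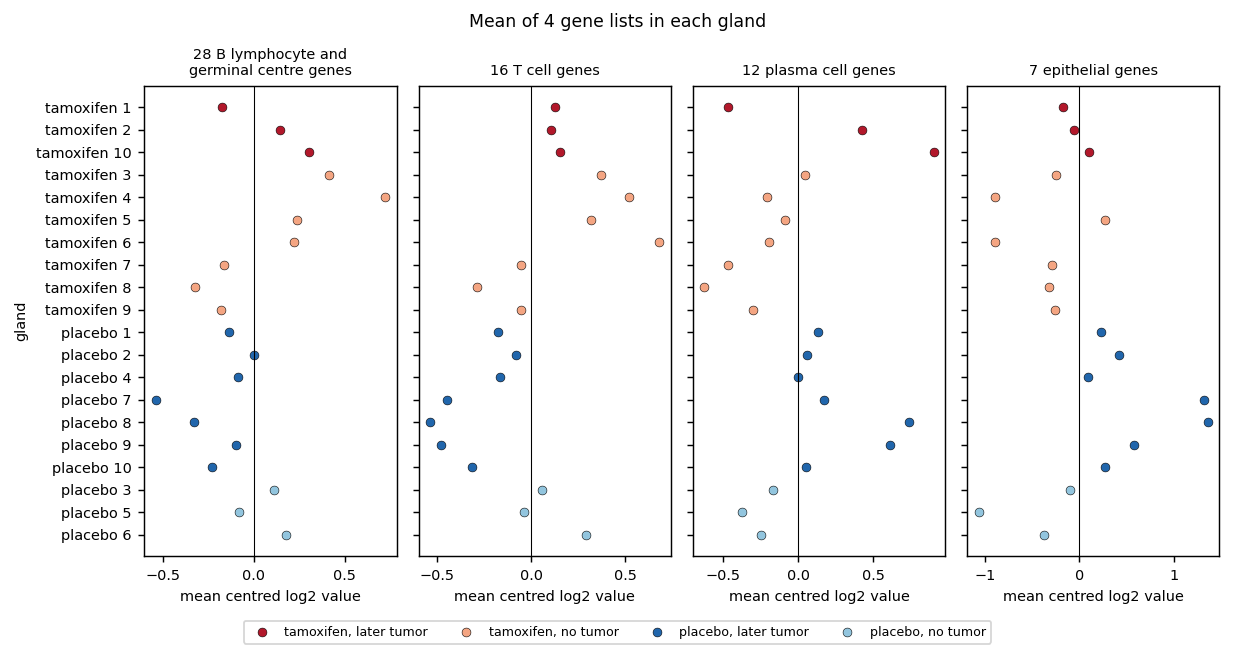
Mean of the centred log2 values (horizontal) of the 28 genes and of the T cell, plasma cell and epithelial lists in each gland (rows, by group). The means of the 28 genes and of the T cell genes are both high in tamoxifen 3 and 4 and low in placebo 7 and 8, and part most in tamoxifen 6, the plasma cell mean is highest in tamoxifen 10, and the epithelial mean in placebo 7 and 8.

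Glands of animals with a later tumor had lower values than glands of animals without for 27 of the 28 genes, but limma called none, against 0.232% of all genes tested. At an unadjusted p under 0.05, 8 (28.6%) were lower and none higher, against 16.5% of all genes in either direction. The median difference was -0.25, and -0.01 over all genes. Of the 10 animals with a later tumor 3 had tamoxifen, against 7 of the 10 without, and with treatment as a term the median was -0.163, with 3 genes at an unadjusted p under 0.05. Leaving out 1 animal gave 5 such genes at the fewest (any of placebo 6 to 10 or of tamoxifen 1, 3, 4, 5 and 6) and 16 at the most (tamoxifen 8 or 10). Cd40 came nearest, with 7.70 ± 0.19 in glands with a later tumor and 8.05 ± 0.25 in glands without (SD, n = 10 each), a difference of -0.34 ± 0.09 (SE, adjusted p = 0.0956). Ltb differed by -0.40 ± 0.12 (0.119) and Fcmr by -0.48 ± 0.16 (0.15). Pou2af1 (-0.07 ± 0.23), Pax5 (-0.01 ± 0.05) and Prdm1 (0.06 ± 0.09) differed by less than their error. Of the 16 T cell genes 14 were lower at an unadjusted p under 0.05 and none was called, and the median was -0.41. With the T cell mean as a covariate the median over the 28 genes was 0.04, and with the epithelial mean it was -0.036. Without placebo 7, 8 and 9 it was -0.157.

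The plasma cell genes had positive differences in the same comparison. Of 12, 9 were higher in glands with a later tumor at an unadjusted p under 0.05, against 16.5% of all genes in either direction. None was called, and the median difference was 0.51. Xbp1, the factor of the secretory program, differed by 0.31 ± 0.07 (adjusted p = 0.0617), Fkbp11 by 0.70 ± 0.18 (0.0878) and Igha, the IgA heavy chain, by 1.07 ± 0.31 (0.111). Of 7 other germinal centre genes none was called, and the median was 0.13. S1pr2, a receptor that keeps B cells within germinal centres, was higher at an unadjusted p under 0.05 (0.13 ± 0.05, adjusted p = 0.158), and Il21r was lower (-0.20 ± 0.08, 0.255). All 7 epithelial genes were higher at an unadjusted p under 0.05 as well, with a median of 0.84, and their part in the plasma cell values was not tested.

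Tamoxifen glands had higher values than placebo glands for 27 of the 28 genes, again with none called by limma, against 0.008% of all genes (1 gene). At an unadjusted p under 0.05, 13 (46.4%) were higher and none lower, against 13.9% of all genes in either direction. The median difference was 0.29, against 0.00 over all genes. With outcome as a term none had an unadjusted p under 0.05 (median 0.215), and without placebo 7, 8 and 9 only 1 had. Leaving out 1 animal gave 6 at the fewest (placebo 7 or tamoxifen 4) and 21 at the most (tamoxifen 8). Ltb averaged 11.24 ± 0.34 in tamoxifen glands and 10.89 ± 0.27 in placebo glands (SD, n = 10 each), a difference of 0.35 ± 0.13 (SE, adjusted p = 0.225). Cd37 differed by 0.34 ± 0.13 (0.247), Blk by 0.30 ± 0.12 (0.255) and Cd40 by 0.27 ± 0.11 (0.26). Irf4 was the exception in sign, with 9.44 ± 0.53 in tamoxifen glands and 9.75 ± 1.03 in placebo glands, a difference of -0.31 ± 0.34 (0.717). The T cell genes differed by a median of 0.42, with 14 of 16 higher at an unadjusted p under 0.05 and none called. All 7 epithelial genes were lower, 4 of them at an unadjusted p under 0.05, with a median of -0.52. Over the 28 genes the median was -0.04 with the T cell mean as a covariate and 0.16 with the epithelial mean, and none had an unadjusted p under 0.05 with either. The 7 skeletal muscle genes had a median difference of 2.01, all 7 at an unadjusted p under 0.05, and their part in these values was not tested.

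The widest contrast of the design set the 7 tamoxifen glands without a tumor against the 7 placebo glands with one. These groups differ in both treatment and outcome. Here 2 of the 28 genes (7.14%) rose past an adjusted p of 0.05, as did 2.23% of all genes tested. They were Cd40, at 8.07 ± 0.30 in tamoxifen glands without a tumor and 7.63 ± 0.17 in placebo glands with one (difference 0.44 ± 0.11, 1.35-fold, adjusted p = 0.0304), and Ltb, at 11.29 ± 0.39 and 10.76 ± 0.17 (0.54 ± 0.14, 1.45-fold, adjusted p = 0.0322). In all 7 tamoxifen glands Cd40 exceeded the median of the placebo glands, and the ranges of both genes overlapped between the groups. No gene of the 28 separated the 2 groups, and 1.45% of all genes did.

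Of the others, 16 were higher at an unadjusted p under 0.05. With both calls these made 64.3% of the 28, against 20.4% of all genes in either direction. The median over the 28 was 0.39, against 0.01 over all genes. The largest difference was that of Fcmr, 0.62 ± 0.19 (adjusted p = 0.0669), followed by Cd79a at 0.58 ± 0.20 (0.0968) and Fcer2a at 0.54 ± 0.17 (0.0681). Pax5 (0.02 ± 0.07) and Prdm1 (0.01 ± 0.11) differed by less than their error, and Irf4 (-0.09 ± 0.42) had the only negative value. Of the 16 T cell genes 13 rose, with a median of 0.60, while 5 of 7 epithelial genes and 3 of 12 plasma cell genes, Igha, Xbp1 and Fkbp11, fell. Of the 7 skeletal muscle genes 5 rose, with a median of 2.22, and their part in the values of the 28 genes was not tested. With the T cell mean as a covariate Cd40 differed by 0.10 (adjusted p = 0.692) and Ltb by -0.02 (0.897), and the median over the 28 was -0.10. With the epithelial mean they differed by 0.17 and 0.38 (adjusted p = 0.965 for both), and the median was 0.19. Neither was called without placebo 7, 8 and 9 (0.37 with adjusted p = 0.205 for Cd40, 0.43 with 0.29 for Ltb).

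Both calls depended on which animals were included. Neither gene was called when placebo 7, placebo 8 or tamoxifen 3, 4, 5 or 6 was left out, with adjusted p between 0.0513 and 0.072, and only Cd40 was called without placebo 9. Leaving out tamoxifen 8 gave 8 called genes, with Cd79a, Cd79b, Cd37, Fcer2a, Blk and Fcmr added, and leaving out tamoxifen 9 gave 4, with Fcer2a and Fcmr added. Of all genes, 6.78% were called in either direction without tamoxifen 8 and 3.82% without tamoxifen 9, against 4.63% with all animals.

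**Figure D5:**
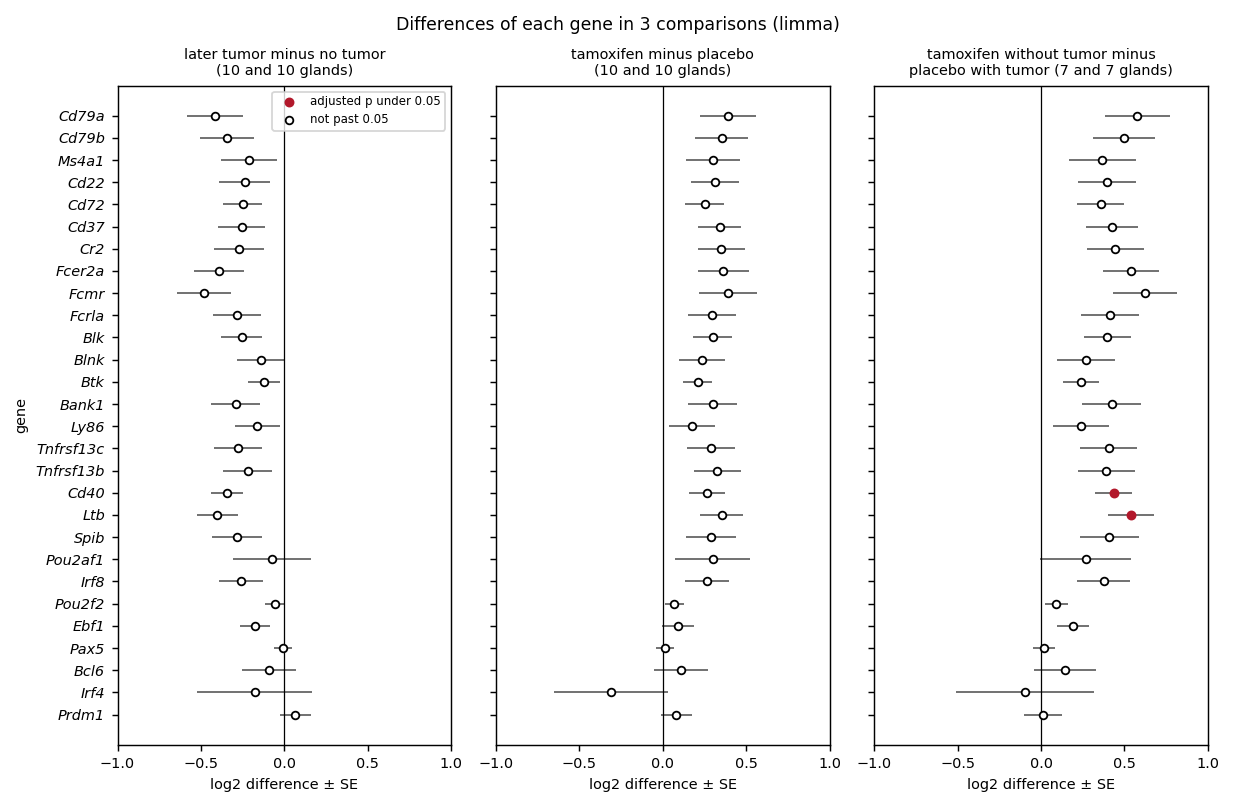
Difference of each of the 28 genes (rows, by role) with its SE in 3 comparisons: later tumor minus no tumor, tamoxifen minus placebo, and tamoxifen without tumor minus placebo with tumor. Nearly all genes lie left of 0 in the first panel and right of 0 in the others, and the filled points of Cd40 and Ltb in the last are the 2 calls.

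Within each treatment the outcome was compared in a model of the 4 groups. In placebo animals, with 7 glands of animals with a later tumor and 3 without, the median difference was -0.26. The median was -0.169 without placebo 7, 8 and 9, and 0.004 with animal numbers as a term. Of the 28 genes none was called, against 0.008% of all genes. Lower at an unadjusted p under 0.05 were 5 of the 28 (17.9%), against 14.1% of all genes in either direction. Ebf1 averaged 9.56 ± 0.27 with a later tumor and 9.94 ± 0.08 without (difference -0.38 ± 0.12, adjusted p = 0.206), and Fcer2a 9.10 ± 0.21 and 9.64 ± 0.20 (-0.54 ± 0.21, 0.271). Cd40, Ebf1, Fcer2a and Spib (4 of 28) had no overlap between these groups, as had 4.66% of all genes. In tamoxifen animals, 3 with a later tumor and 7 without, the median was -0.06 and none was called (0.008% of all genes). None had an unadjusted p under 0.05 (2.1% of all genes). The sign of that median turned without tamoxifen 1 (0.062) and without tamoxifen 4 (0.044), and it was -0.166 without tamoxifen 10. The interaction, which tests whether the outcome differences of the 2 treatments differ, called none of the 28 and 0.0% of all genes, with a median of 0.23. The median ran from 0.125 without tamoxifen 8 to 0.37 without tamoxifen 1, and was 0.129 without placebo 7, 8 and 9. It was 0.115 with a term for numbers 1 to 5 and 6 to 10, and -0.021 with animal numbers as a term. Ebf1 alone had an unadjusted p under 0.05 in the interaction (0.43 ± 0.18, adjusted p = 0.938), as had 4.52% of all genes.

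Between treatments at one outcome, the animals with a later tumor (3 tamoxifen, 7 placebo) had a median difference of 0.32 over the 28 genes. None was called (0.0% of all genes). Only Fcer2a had an unadjusted p under 0.05 (0.49 ± 0.21, adjusted p = 0.703), as had 7% of all genes. The median ran from 0.203 without tamoxifen 10 to 0.448 without tamoxifen 1. Fcer2a was also the only one without overlap, as 3.53% of all genes were. Among animals without a tumor (7 tamoxifen, 3 placebo) the median was 0.10 and none was called (0.064% of all genes). None had an unadjusted p under 0.05 (5.26% of all genes). That median ran from 0.0038 without tamoxifen 4, where 14 of the 28 were positive, to 0.198 without tamoxifen 8. With animal numbers as a term it was 0.302. Cr2 had the largest positive difference there, 0.27 ± 0.22. The 3 placebo glands without a tumor lay inside the range of the 7 tamoxifen glands for Cd79a, Cd40 and Ltb.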

How the data were processed

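The submitters' processing notes name RMA, and the deposited log2 values of the authors, 1 array per gland, were used as they stood. Further software, versions and a genome build were not given in the sources used here. Values of the 45101 probe sets ran from 3.38 to 14.55 and array medians from 6.82 to 6.89. No 2 arrays were identical, and Pearson's r between arrays lay between 0.977 and 0.997. The number of arrays limits the precision.

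Probe sets with 1 symbol in the platform table (34958, of which 34754 took a current symbol by Entrez ID) were used, and 932 with several and 9211 with none were not. Each of 18194 genes kept its probe set with the highest mean, and the 12499 that exceeded 6.85, the overall median, in 3 or more glands were tested in R 4.3.3 using lmFit and eBayes of limma 3.58.1 (two-sided, Benjamini-Hochberg over all genes tested, threshold 0.05). The outcome and treatment comparisons used 10 against 10 glands, the others a model of the 4 groups, and the slope the mean of 16 T cell genes, which were left out of that fit. The p-values measure the spread between these animals. The procedure was tested on simulated data.

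The members, the marker lists and the comparisons were chosen with earlier results of these data known. All 30 members are accounted for, and of every other list at most 4 genes with the smallest p are given by value, except Krt18, Epcam and Adipoq as a check of the tissue, and Igha and Rgs13 where the text says they were chosen after their values were seen. Alternatives covered scaling, filter, probe set choice, variance model, array weights, replicate numbers, covariates and leaving out animals. Same-numbered animals did not all deviate together (correlations of -0.10 to 0.59 over the treatment numbers and -0.22 to 0.32 over the outcome numbers), so the numbers were not taken as pairs. Members' promoters were read from the RefSeq table.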

Additional observations from a re-analysis of the deposited data

Results flagged for a closer look

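Outlying glands were sought with Dixon's test for 28 genes and 3 list means in the 6 groups of at least 7 glands, which gave 186 tests and 10 that passed the 95% critical value. Chance gives about 1 in 20, which is close to this count. Most of the genes move together over the glands, so the tests are not independent and the count cannot decide whether chance gave it. The groups overlap too, and Fcrla and Bcl6 passed in more than 1 group. Placebo 7 was the lowest gland in 7 of the 10. Among placebo glands with a later tumor it read 8.73 for Cd79a (next 9.12), 6.58 for Fcrla (next 7.04), 8.85 for Spib (next 9.27) and 7.87 for Blk (next 8.24). Among all placebo glands it read 8.93 for Pou2af1 (next 9.64) and 6.58 for Fcrla, and among all glands with a later tumor 7.41 for Bcl6 (next 8.11). This gland had an epithelial mean of 1.32 and a T cell mean of -0.45, and their part in these values was not tested. Placebo 9 was the highest placebo gland with a later tumor for Pou2f2, at 7.52 (next 7.23). Tamoxifen 7 was the lowest for Bcl6, at 7.74 (next 8.39), among tamoxifen glands without a tumor and among all tamoxifen glands, where its T cell mean of -0.06 lay within the range of the others.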

How the results depend on the processing

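In the comparisons with no called member, 1 alternative called one: the replicate block (animal numbers as a term) called Ltb in tamoxifen against placebo (adjusted p = 0.023). The sign of 1 called value turned, that of Ltb in tamoxifen without tumor against placebo with tumor, at -0.022 with the T cell mean as a covariate. In that comparison the members called were 0 without placebo animals 7, 8 and 9, 0 with the T cell or the epithelial mean as a covariate, and 4 with a term for numbers 1 to 5 and 6 to 10. The replicate block gave 2, Ltb and Ebf1, with Cd40 at an adjusted p of 0.0551. The counts ran from 0 to 8 on leaving out 1 animal. For the slope, 13 members were called under the replicate block and 10 with the stroma list, where the median slope was 1.98.

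Counts over all genes moved more. For later tumor against none (29 genes) they were 14 with no filter, 45 with the term for number runs, 7 without placebo 7, 8 and 9, 0 with the T cell covariate, 0 with treatment as a term, 1 with the epithelial covariate, and from 1 (without placebo 5 or tamoxifen 6, 7 or 9) to 118 (without tamoxifen 1) on leaving out 1 animal. For tamoxifen against placebo (1 gene) they were 9 with quantile normalization, 11 with a common median, 2 with no filter, 235 under the replicate block, 0 to 110 (without placebo 6) on leaving out 1 animal, and 0 with the mean of all probe sets, without placebo 7, 8 and 9, with either covariate and with outcome as a term. For tamoxifen without tumor against placebo with tumor (579) they were 1647 under the block, 134 without the 3 placebo glands, 204 with the T cell covariate, 5 with the epithelial one, and 295 to 845 on leaving out 1 animal. Within tamoxifen (1) they were 13 with array weights, 5 under the block, 0 without the 3 placebo glands, 2 with the T cell covariate and 0 to 7. Within placebo (1) they were 2 with the mean of probe sets, 602 under the block, 0 without the 3 glands, 0 with the T cell covariate and 0 to 60. Between treatments they were 2 with array weights and 0 to 1 among animals with tumors (0), and 18, 3 under the block, 14 without the 3 glands and 2 to 17 among those without (8). For the interaction (0) they were 1 with weights, 2 under the block and 0 to 3. For the slope (1994) they were 397 under the block, 192 with the stroma list and 1233 with the epithelial covariate.

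With the T cell covariate the median member difference was 0.039 by outcome, -0.038 by treatment, -0.10 for tamoxifen without tumor against placebo with tumor, 0.11 within placebo, -0.061 between treatments among animals with tumors and -0.11 for the interaction. The animal numbers were not taken as pairs, but correlations that vary from number to number cannot decide whether some numbers go together. The replicate block changed no call of a member other than those counted here. The causes of these shifts were not tested. Groups of 3 glands and the joint movement of epithelial, T cell and B cell genes limit every comparison, and Fcrla and Prdm1 lie near the filter's level.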

Other observations

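Igha, the IgA heavy chain, was highest in placebo 7 (12.42), the gland with the lowest mean of the 28 B cell genes, and lowest in tamoxifen 4 (9.07), the gland with the highest. Rgs13, a germinal centre B cell gene, read 8.26, 7.51, 7.65 and 7.07 in tamoxifen 10, tamoxifen 2, placebo 9 and placebo 8, all of which later had a tumor, and 4.37 to 6.56 in the other 16 glands. These genes and glands were picked after their values were seen, and the readings are given with no test.

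Of the lists for other cells, the skeletal muscle mean had the widest range, from -1.90 in placebo 2 to 4.22 in tamoxifen 7. The mean of the 28 B cell genes was -0.17 in tamoxifen 7 and 0.00 in placebo 2. The slope on the T cell mean was called for none of 7 muscle genes (median 0.65, none at an unadjusted p under 0.05), none of 5 adipocyte genes (median 0.07, none at an unadjusted p under 0.05) and 2 of 5 granulocyte and mast cell genes (median 0.37), both positive.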
